A study of Rattus norvegicus with 6 samples.

Results

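The alcohol dehydrogenases and aldehyde dehydrogenases are 2 enzyme families that act one after the other: the first oxidises an alcohol to an aldehyde with NAD as the acceptor, and the second oxidises the aldehyde to an acid. 10 rat genes of these families were followed (Adh1, Adh4, Adh5, Adh6, Adh7, Aldh1a1, Aldh1a7, Aldh2, Aldh3a2 and Aldh9a1), against 15278 named genes on the arrays. The 10 genes were chosen by name, with earlier results of these data known. Probes were assigned to them through the RefSeq accession printed on the array. 9 of the 10 had a named probe, with 17 probes in all, and 8 were well above background and were tested beside 11798 genes in total. Adh1 is listed as Adh1c in the RefSeq table, with Adh1 as a synonym. No named probe was found for Aldh1a7, which is not analysed here.

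RNA came from the renal cortex, the outer kidney with its glomeruli and tubules, of male Sprague-Dawley rats, an outbred stock, bought at 5 weeks of age. 3 rats had been given tris(2-chloroethyl)phosphate (TCEP), an organophosphate flame retardant, at 400 mg/kg/day for 4 weeks, and 3 had been given its vehicle, corn oil, for the same 4 weeks. Each rat was hybridised to its own single-colour Agilent array, and the comparison asks which transcripts differ after TCEP.

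In the kidney both families are best known from the proximal tubule. Class I alcohol dehydrogenase handles ethanol and retinol, class III handles formaldehyde bound to glutathione, and the aldehyde dehydrogenases clear acetaldehyde, retinaldehyde, fatty aldehydes and the aldehyde intermediate of carnitine synthesis. TCEP is an ester of chloroethanol, and free chloroethanol is a known substrate of alcohol dehydrogenase, which turns it into the reactive chloroacetaldehyde, itself a substrate of aldehyde dehydrogenases.

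Levels below are log2 signals minus the log2 75th percentile of the array, so that 0 is the brightness of a probe at that percentile. Differences are TCEP minus vehicle on the same log2 scale, with the standard error (SE) of the limma fit, and each ± is an SD over 3 arrays of a group. Probe brightness depends on the probe as well as on the transcript, so levels are compared between arrays and not between genes. The share of the 61657 probes for transcripts that exceeded background clearly was 67.2% to 69.3% per array. Per the file headers, all TCEP arrays shared the scan identifier and scan date numbered 2 here, and all vehicle arrays those numbered 1. Scan, any slide that went with it, and treatment cannot be told apart in any value given here. The proximal tubule marker Slc34a1, a phosphate transporter, was bright on every array, at 8.25 to 8.51 with TCEP and 8.39 to 8.48 with vehicle. In a piece of whole cortex, fewer cells of a type and less RNA per cell cannot be told apart. Markers of other nephron segments had 1 higher and 6 lower means with TCEP among 7 tested (of 8), with a median difference of -0.32, 2 lower at an unadjusted p under 0.05 and 3 lower without overlap. Their summed level was 532 to 695 times the 75th percentile with TCEP and 557 to 648 with vehicle. The brightest marker, Umod, weighed most in that sum, at 8.73 to 9.18 with TCEP and 8.66 to 9.11 with vehicle. Umod was the 1 marker with a higher mean, so the sum says little about the 6 lower ones. Red cell and blood markers had 0 higher and 4 lower means among 4 tested (of 6), with a median of -0.62. Their summed levels were 178 to 202 with TCEP and 173 to 269 with vehicle. Hbb weighed most in the blood sum, at 7.46 to 7.65 with TCEP and 7.42 to 8.05 with vehicle. Proximal tubule markers had 8 higher and 4 lower means among 12 tested, with a median of 0.04. Fat markers had 4 higher and 1 lower among 5 tested (of 8), with a median of 0.23. In each of these lists 1 marker was higher at an unadjusted p under 0.05 in limma, against 4.21% of all tested genes. Urothelium, liver and endothelium markers had 2 of 3, 1 of 3 and 2 of 5 higher means. The part of these cell types in the differences below was not tested.

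Across the 8 tested genes the means in TCEP-treated cortex differed from the vehicle means by at most 0.16 on the log2 scale for 6 genes. Adh6 and Adh4 stood apart at 0.92 and 0.43. 6 genes had a higher mean with TCEP and 2 a lower one, against 52.5% higher means over all tested genes, and the median difference was 0.07, against 0.01 over all tested genes. None of the 8 passed a Benjamini-Hochberg adjusted p of 0.05 in limma, where 0 of 11798 genes did (0%). At an unadjusted p under 0.05, 1 of the 8 was counted, Adh6, against 8.33% of all tested genes in either direction, 4.21% in the higher and 4.12% in the lower direction. That count differed between settings. It was 0 of 8 with any single TCEP array left out, where the p of Adh6 in limma was 0.059 to 0.084. It was 3 of 8 (Adh5, Adh6 and Aldh2) with normexp, a model of signal plus background. The normexp setting also used the median spot signal and added an offset, and which of these steps moved the count was not tested. For 3 of the 8 (Adh5, Adh6 and Aldh2) every TCEP array lay above every vehicle array, against 8.65% of all tested genes. For none did every TCEP array lie below, against 6.98%, and the share of all tested genes without overlap in either direction was 15.6%. With so few genes these shares describe the genes and were not tested.

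**Figure D1:**
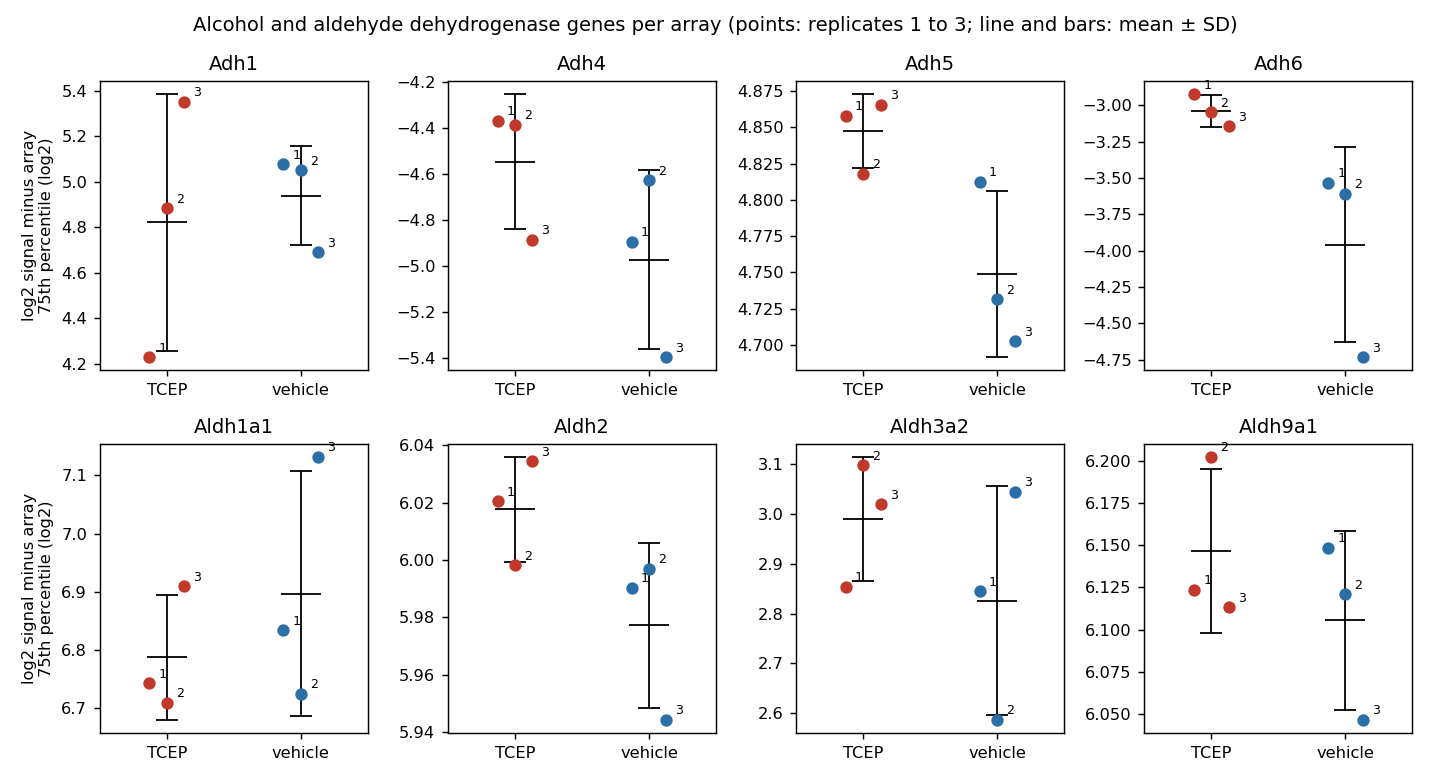
Level of each of the 8 tested genes (log2 signal minus the array's 75th percentile, each panel with its own axis) on the 3 TCEP arrays, left, and the 3 vehicle arrays, right, with replicate numbers; lines and bars are mean ± SD. The groups are separate for Adh5, Adh6 and Aldh2 and overlap for the other 5 genes, and the TCEP arrays of Adh1 spread from 4.23 to 5.35.

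Adh6, which encodes the class V enzyme whose natural substrate is poorly known, had levels of -2.92, -3.05 and -3.14 on the TCEP arrays and of -3.53, -3.61 and -4.73 on the vehicle arrays. All TCEP arrays were higher, and vehicle replicate 3 lay far below the other 2 vehicle arrays. The means were -3.04 ± 0.11 with TCEP and -3.96 ± 0.67 with vehicle (SD, n = 3 each). The difference was 0.92 (SE 0.33), or 1.89-fold with a 95% confidence interval of 1.08 to 3.30, at an unadjusted p of 0.0310 and an adjusted p of 0.561 in limma. Among the 11798 tested genes it ranked 649 by p.

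The Adh6 probe is dim. Its processed signal was 142, 118 and 109 intensity units with TCEP and 83.5, 79.5 and 37.2 with vehicle, where the local background of the spots lay between 55 and 72 units before subtraction. Without vehicle replicate 3 the difference was 0.53, and it was 0.44 when the median spot signal was corrected by normexp, in both cases still higher with TCEP. The SE was smaller in both, at 0.09 and 0.11, and the unadjusted p in limma was 0.0025 and 0.0069. The smallest adjusted p of Adh6 in limma over all alternatives was 0.27. The normexp step adds an offset of 50 units, which by itself makes log2 differences of dim probes smaller. The normexp values of dim probes here and below therefore cannot separate background from offset. Adh6 has a single named probe, so no other probe checks it.

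Adh4, the class II enzyme, was the other gene with a sizeable mean difference. Its levels were -4.37, -4.39 and -4.89 with TCEP and -4.89, -4.63 and -5.40 with vehicle. TCEP replicate 3 lay among the vehicle arrays, and vehicle replicate 3 was again the lowest. The difference was 0.43 (SE 0.24, adjusted p of 0.689 in limma), or 1.34-fold with a 95% confidence interval of 0.90 to 2.01. The signal was dimmer still, at 52.1, 46.5 and 32.7 intensity units with TCEP and 32.5, 39.2 and 23.5 with vehicle. A further pair of Adh4 probes was not well above background on any array. With normexp the difference was 0.14, and it was 0.21 without vehicle replicate 3.

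Adh6 and Adh4 are near neighbours in the alcohol dehydrogenase cluster on rat chromosome 2, where the RefSeq order is Adh7, Adh1c, Adh6a, the pseudogene Adh1-ps1, Adh6, Adh4 and Adh5. The promoter windows of Adh4 and Adh6, 250 bases before to 50 after each start in RefSeq (GRCr8), are shown because they are near copies. The best local alignment had 281 identical bases in 293 columns (95.9%), with 8 mismatches and 4 gap columns. Capitals mark the bases that differ within the aligned stretch, and both windows are on the plus strand, Adh6 at chr2:229576386-229576685 and Adh4 at chr2:229621842-229622141.
Adh6 promoter: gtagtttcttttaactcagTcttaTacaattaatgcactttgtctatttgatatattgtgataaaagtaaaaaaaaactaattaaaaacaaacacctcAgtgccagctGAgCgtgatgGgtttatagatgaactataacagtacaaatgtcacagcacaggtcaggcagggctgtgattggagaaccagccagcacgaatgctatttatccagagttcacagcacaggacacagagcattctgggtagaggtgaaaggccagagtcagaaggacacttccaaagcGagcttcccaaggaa
Adh4 promoter: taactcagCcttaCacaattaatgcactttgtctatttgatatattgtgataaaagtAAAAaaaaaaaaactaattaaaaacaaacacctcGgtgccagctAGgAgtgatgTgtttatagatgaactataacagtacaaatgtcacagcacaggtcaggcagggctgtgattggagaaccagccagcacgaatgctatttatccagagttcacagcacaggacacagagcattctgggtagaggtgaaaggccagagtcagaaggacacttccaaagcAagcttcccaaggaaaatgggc
The next best pair among the 9 windows compared, Adh5 with Aldh9a1, reached 60 identical bases in 88 columns. The sequences of the array probes are not used here, so whether the Adh4 probe also takes up Adh6 transcripts was not tested, and the values of both genes are uncertain to that extent.

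Adh6a, a relative in the same cluster that is not among the 10 genes, was looked at after its values were seen because its symbol is so close to Adh6. It went the other way, with levels of -3.19, -3.09 and -2.97 on the TCEP arrays and of -2.51, -2.42 and -2.25 on the vehicle arrays, without overlap. The difference was -0.69 (SE 0.10, 0.62-fold, unadjusted p of 0.00042, adjusted p of 0.533 in limma), which ranked 8 by p over all tested genes. Its second probe gave -0.34 (SE 0.18), with vehicle replicate 3 among the TCEP arrays. Its promoter window at chr2:229511185-229511484 (plus strand) is shown beside that pair as the neighbour whose probe differed the other way. Its best local alignment to either covered 18 columns, and it held none of the 7 motifs named below.
Adh6a promoter: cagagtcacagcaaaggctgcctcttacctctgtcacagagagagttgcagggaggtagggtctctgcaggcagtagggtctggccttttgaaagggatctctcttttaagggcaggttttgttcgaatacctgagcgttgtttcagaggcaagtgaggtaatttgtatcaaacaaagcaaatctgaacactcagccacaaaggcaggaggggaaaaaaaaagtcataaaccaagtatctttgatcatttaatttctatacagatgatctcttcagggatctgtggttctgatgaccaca

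Adh5, the glutathione-dependent formaldehyde dehydrogenase that also reduces nitrosoglutathione, had levels of 4.86, 4.82 and 4.87 with TCEP and of 4.81, 4.73 and 4.70 with vehicle. The groups did not overlap, but TCEP replicate 2 and vehicle replicate 1 nearly met. The difference was 0.10 (SE 0.06, 1.07-fold with a 95% confidence interval of 0.96 to 1.19, adjusted p of 0.712 in limma). Its second probe gave 0.08 and likewise had all TCEP arrays on the upper side, and with normexp the difference of the first was 0.21. The spread of Adh5 within groups was among the narrowest, with a pooled SD of 0.04 at the 5.9th percentile of all tested genes.

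The Adh5 window at chr2:229648307-229648606 (GRCr8, plus strand) is shown as the contrast to the cluster's other promoters. It holds 28 CpG pairs and 63.7% G and C, against 3 pairs and 41.0% for Adh6, 2 pairs and 41.3% for Adh4, and a median of 7 pairs over all 33469 windows. Capitals mark matches to GCGTG, the core bound by the aryl hydrocarbon receptor, and to GGGCGG, the GC box, on either strand.
Adh5 promoter: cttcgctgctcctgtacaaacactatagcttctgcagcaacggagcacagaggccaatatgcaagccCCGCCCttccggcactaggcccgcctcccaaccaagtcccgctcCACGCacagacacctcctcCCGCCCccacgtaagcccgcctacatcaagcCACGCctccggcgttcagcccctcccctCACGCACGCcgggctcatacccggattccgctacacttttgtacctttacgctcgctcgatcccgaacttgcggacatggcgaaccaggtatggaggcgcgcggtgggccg
7 motifs were searched on both strands of the 8 member windows found and of Adh6a. TGACNNNGC, the core of the antioxidant response element bound by NRF2, matched in Aldh9a1 and in no other of them, against 12.1% of all windows. GCGTG matched in Adh5, Adh6, Adh7, Aldh3a2 and Aldh9a1 (29.7% of all windows), with 2 overlapping matches in Adh5. GGGCGG matched in Adh5, Adh7, Aldh3a2 and Aldh9a1 (33.1%), and TATAAA in Adh4 and Adh6 (14.2%), in both on the minus strand. TTGCNNAA (C/EBP, 10.6%), the HNF1 motif (0.0030%) and the palindromic motif of the glucocorticoid and androgen receptors (0.44%) matched in none of the 9 windows. A match is a run of letters and not a measured binding site.

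Adh1, the class I enzyme that carries most ethanol oxidation in the liver and also oxidises retinol, differed mainly among the TCEP-treated rats. Its levels were 4.23, 4.88 and 5.35 with TCEP and 5.08, 5.05 and 4.69 with vehicle. TCEP replicate 1 was the lowest and TCEP replicate 3 the highest of the 6 arrays, and the vehicle arrays lay between them. The means were 4.82 ± 0.56 with TCEP and 4.94 ± 0.22 with vehicle (SD, n = 3 each), a difference of -0.12 (SE 0.29, adjusted p of 0.932 in limma). The 95% confidence interval ran from 0.56-fold to 1.51-fold, so a moderate change in either direction was not detectable with these arrays. The sign depended on 1 array: the difference was 0.18 without TCEP replicate 1 and -0.38 without TCEP replicate 3.

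Both Adh1 probes showed the same order on all 6 arrays, at 4.08, 4.71 and 5.20 with TCEP and 4.99, 4.85 and 4.61 with vehicle for the second. The spread was thus seen by 2 probes, not by 1 spot alone. The pooled SD within groups of 0.43 lay at the 92.7th percentile of all tested genes. On the TCEP arrays, in the order of replicates 1, 2 and 3, the summed level of 5 detected fat markers of 8 was 3.89, 2.87 and 1.98 times the 75th percentile, an order opposite to that of Adh1. On the vehicle arrays it was 2.12, 3.52 and 1.44, where the array with the lowest sum also had the lowest Adh1 level, so the opposite order did not hold there. On the TCEP arrays the defining marker Adipoq was at 0.06, -0.04 and -0.09. The summed level of 12 of 12 proximal tubule markers was 1939, 2057 and 1813 on these arrays and 1775, 1974 and 1709 on the vehicle arrays. On the TCEP arrays the sum for other nephron segments (695, 593 and 532) had the order of the fat sum. So did Umod, the brightest marker in it (9.18, 8.91 and 8.73). Nphs1, in the same list, had the order of Adh1 (0.58, 0.94 and 1.02). The endothelial sum (73.8, 78.7 and 83.3) and the blood sum (178, 191 and 202) had the order of Adh1. The blood sum was mostly Hbb (7.46, 7.56 and 7.65), so neither it nor the nephron segment sum stands for its whole list. Proximal tubule, urothelium and liver markers had neither order. The part of these cell types in the spread of Adh1 was not tested.

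Adh7, the class IV retinol dehydrogenase of stomach and other epithelia, was not well above background on any of the 6 arrays. Its signals of 7.49, 3.47 and 3.55 intensity units with TCEP and 5.10, 2.99 and 4.18 with vehicle carry no order, and it was not tested.

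**Figure D2:**
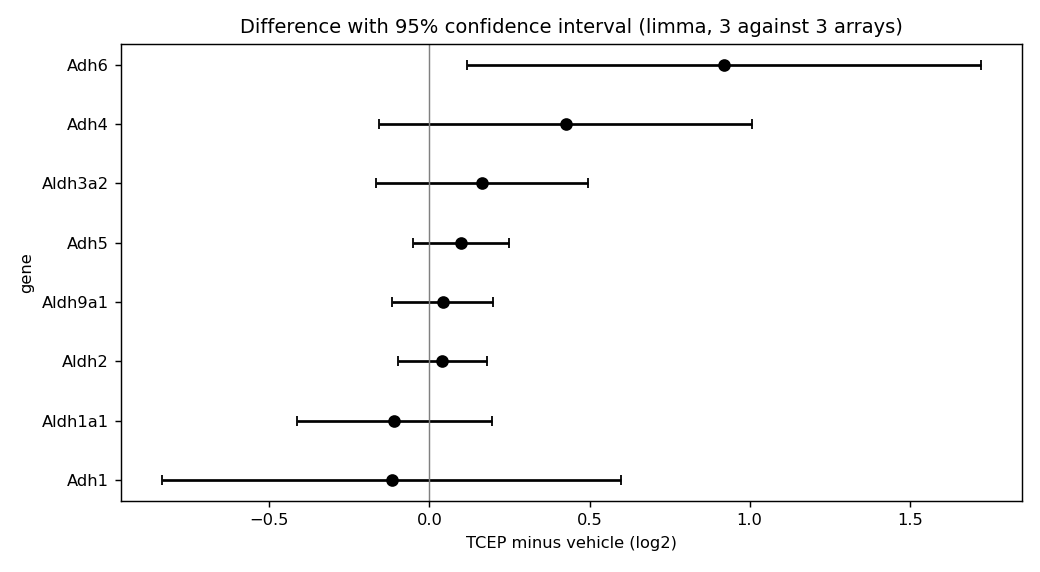
TCEP minus vehicle (log2) for the 8 tested genes with the 95% confidence interval of the limma fit over 3 against 3 arrays. The interval of Adh6 runs from 0.12 to 1.72, those of the other 7 genes include 0, and the widest of these belong to Adh1 and Adh4.

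Among the aldehyde dehydrogenases, Aldh2, the mitochondrial enzyme that clears acetaldehyde, was the most constant. Its levels were 6.02, 5.998 and 6.03 with TCEP and 5.99, 5.997 and 5.94 with vehicle. All TCEP arrays lay above all vehicle arrays, but TCEP replicate 2 and vehicle replicate 2 nearly met. The difference was 0.04 (SE 0.06, 1.03-fold with a 95% confidence interval of 0.93 to 1.13, adjusted p of 0.870 in limma), and the second probe gave 0.08 with the same separation. The pooled SD of 0.02 lay at the 0.79th percentile of all tested genes. With normexp the difference was 0.17.

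Aldh9a1, which oxidises the aldehyde intermediate of carnitine synthesis, was nearly as even. It was at 6.12, 6.20 and 6.11 with TCEP and at 6.15, 6.12 and 6.05 with vehicle, and the groups overlapped. The difference was 0.04 (SE 0.06, 95% confidence interval of 0.92-fold to 1.15-fold, adjusted p of 0.882 in limma). Its second probe gave -0.06, so no direction can be read.

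Aldh1a1, the cytosolic retinaldehyde dehydrogenase, had levels of 6.74, 6.71 and 6.91 with TCEP and of 6.83, 6.73 and 7.13 with vehicle. Vehicle replicate 3 was the highest of the 6 arrays by both probes, and without it the difference of -0.11 (SE 0.12, adjusted p of 0.839 in limma) became 0.01. The second probe gave -0.20 (SE 0.14). The 95% confidence interval of the first ran from 0.75-fold to 1.14-fold.

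Aldh3a2, the fatty aldehyde dehydrogenase of the endoplasmic reticulum, was at 2.85, 3.10 and 3.02 with TCEP and at 2.85, 2.59 and 3.05 with vehicle. The groups overlapped, vehicle replicate 2 lay below the rest, and without that array the difference of 0.16 (SE 0.14, adjusted p of 0.770 in limma) was 0.04. The second probe gave 0.07 (SE 0.11).

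The 6 arrays did not contribute evenly. Vehicle replicate 3 was the lowest array for 5 of the 8 genes (Adh4, Adh5, Adh6, Aldh2 and Aldh9a1) and the highest for Aldh1a1, where it was the lowest for 21.9% and the highest for 16.3% of all tested genes. A TCEP array was the highest for the other 7. TCEP replicates 1, 2 and 3 were the highest for 2, 2 and 3 of them, against 19.3%, 14.7% and 18.9% of all tested genes. Without vehicle replicate 3, 7 of the 8 means were higher with TCEP, but the differences of Adh4, Adh5, Adh6, Aldh2 and Aldh9a1 shrank to 0.21, 0.08, 0.53, 0.02 and 0.01. No label sets this rat apart from the other vehicle rats.

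**Figure D3:**
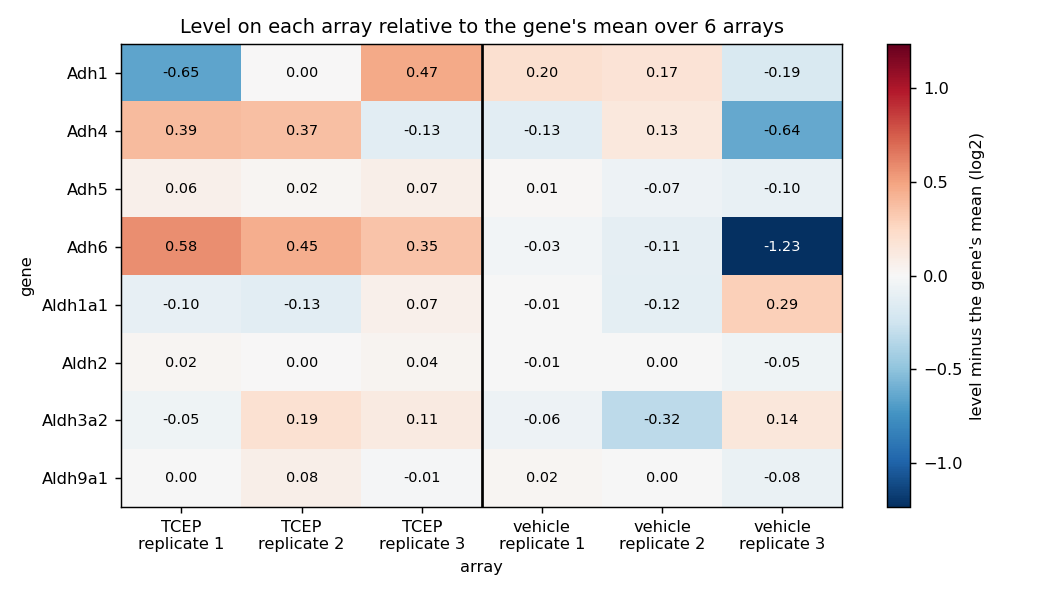
Level of each tested gene on each array minus its mean over the 6 arrays (log2, colour and printed value), TCEP arrays left of the line and vehicle arrays right. The strongest value is Adh6 on vehicle replicate 3 (-1.23), followed by Adh1 on TCEP replicate 1 (-0.65) and Adh4 on vehicle replicate 3 (-0.64).

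The wider set of genes around these enzymes was described through 5 lists. Of 12 tested other aldehyde dehydrogenases (of 14 listed), 8 had a higher and 4 a lower mean, with a median difference of 0.09, and 0 passed an unadjusted p under 0.05. The member with the smallest p was Aldh3b1, which oxidises lipid-derived aldehydes, at 0.05, -0.20 and -0.35 with TCEP and -0.69, -0.26 and -0.96 with vehicle, a difference of 0.47 (SE 0.20, and 0.31 without vehicle replicate 3). Aldh1a2, a retinaldehyde dehydrogenase of the embryo, differed by -0.24 (SE 0.13, and -0.13 without TCEP replicate 2) and Aldh1l1, of folate metabolism, by 0.19 (SE 0.10, 0.06 with normexp and 0.09 without TCEP replicate 1).

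Other routes by which alcohols and aldehydes are oxidised or reduced had 12 higher and 11 lower means among 23 tested genes (of 24), a median of 0.05 and 2 genes at an unadjusted p under 0.05, both higher. These shares, 52.2% higher and 8.70% at that p, were near the 52.5% and 8.33% of all tested genes. These were the aldo-keto reductases Akr1e2, at 0.27 (SE 0.07), and Akr7a3, an aflatoxin aldehyde reductase, at 0.65 (SE 0.18). Akr1e2 was 0.10 as the mean over its 3 probes. Catalase (Cat), which can oxidise ethanol with hydrogen peroxide, was at 3.53, 3.36 and 3.48 with TCEP and 3.26, 3.35 and 3.21 with vehicle, a difference of 0.18 (SE 0.08) with TCEP replicate 2 and vehicle replicate 2 almost level.

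Retinoid handling genes had 11 higher and 8 lower means among 19 tested (of 24), a median of 0.08, and 2 at an unadjusted p under 0.05, both higher, or 10.5% against 8.33% of all tested genes. Rdh7, a microsomal retinol dehydrogenase, had levels of -3.06, -2.83 and -3.46 with TCEP and of -4.90, -4.61 and -6.25 with vehicle. The fitted difference was 2.14 (SE 0.45, adjusted p of 0.533 in limma). The probe was above background on all TCEP arrays but on 2 of the 3 vehicle arrays, so it entered the test through the group where it was brighter, and the size of the difference, its SE and its place in the count of 2 rest in part on a vehicle value not above background. The signals were 129, 137 and 88 intensity units with TCEP and 32.5, 39.6 and 12.98 with vehicle. The difference was 0.84 with normexp and 1.64 without vehicle replicate 3, the array with the dimmest signal. Rdh13, a mitochondrial retinaldehyde reductase, differed by 0.26 (SE 0.07, and 0.13 with normexp), and Cyp26a1, which degrades retinoic acid, by 0.80 (SE 0.34, and 0.41 with normexp).

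Carnitine synthesis and use, downstream of Aldh9a1, had 4 higher and 3 lower means among 7 tested genes (of 8), with a median of 0.02 and 0 at an unadjusted p under 0.05. Fatty aldehyde supply, upstream of Aldh3a2, also had 4 higher and 3 lower among 7 (of 8), with a median of 0.06 and 0 at that threshold. The named carnitine genes were Cpt2 at -0.19 (SE 0.08), Cpt1a at 0.45 (SE 0.26) and the carnitine transporter gene Slc22a5 at -0.10 (SE 0.15). Without TCEP replicate 1, Cpt1a was 0.21 and Slc22a5 turned to 0.03. Among the fatty aldehyde genes, Gnpat differed by -0.12 (SE 0.07), Pecr by 0.25 (SE 0.17) and Hacl1, whose product releases fatty aldehydes in peroxisomes, by 0.15 (SE 0.14). Pecr was 0.09 without TCEP replicate 2, and Hacl1 was 0.03 without TCEP replicate 1 and 0.04 as the mean over its 4 probes. None of the genes in these 5 lists passed the adjusted threshold.

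**Figure D4:**
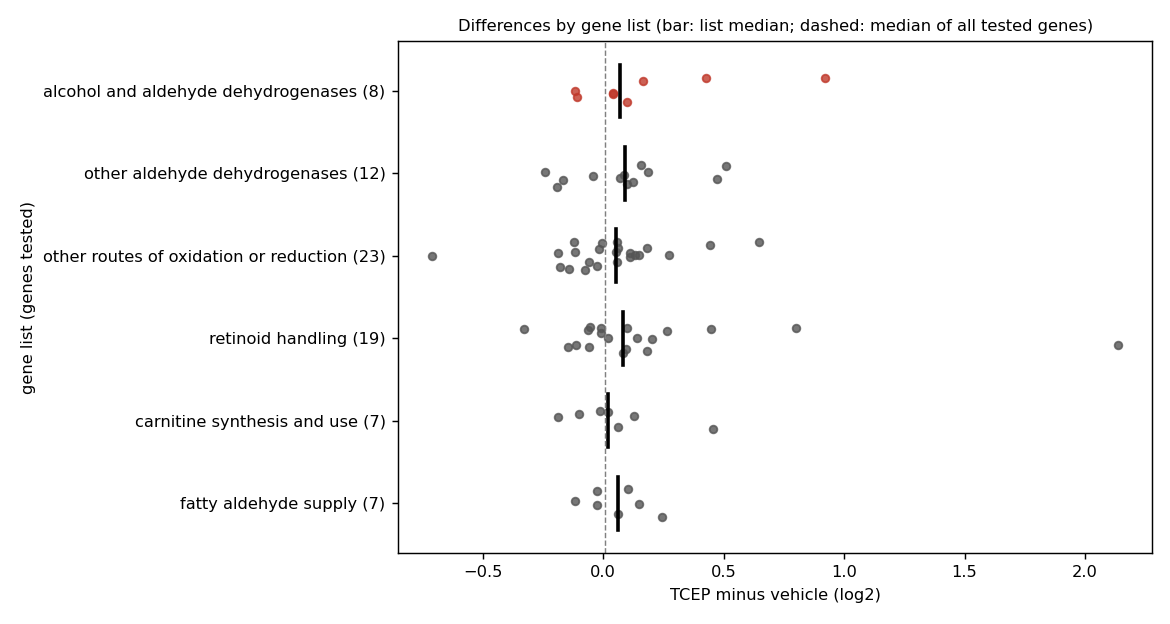
TCEP minus vehicle (log2) for the tested genes of the alcohol and aldehyde dehydrogenases and of 5 related lists; a point is a gene, the bar the list median, the dashed line the median of all tested genes (0.01). List medians lie between 0.02 and 0.09. The point farthest right is Rdh7 at 2.14, which rests in part on a vehicle value not well above background.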

How the data were processed

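Single-colour arrays of 3 TCEP and 3 vehicle rats were read from the authors' scanner files, made with Agilent Feature Extraction 10.7.1.1 per the file headers (10.7 per the submitters' processing notes). The deposited processed signal is an intensity, background-subtracted and detrended by that software per the file headers, and not scaled between arrays. The deposited flags for background, saturation and outliers are other values of 0 or 1 per the file headers. The deposited series matrix holds the same intensity divided by a constant close to each array's 75th percentile (ratio 1.0002 to 1.0015), with column medians of 0.104 to 0.107, no centring of genes seen, and the scaling step not stated. It served as an alternative. Per the file headers the design was annotated on rn4, so RefSeq sequences and names (GRCr8) are given with their own build.

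12 outlier probes were left out. Names came from unversioned accessions, and 27440 of 61645 probes matched, for 15278 genes. The log2 processed signal was scaled by subtracting the array's log2 75th percentile (control spots left out). A gene was represented by its brightest probe. It was tested if every array of 1 group or both carried the scanner's flag for a signal well above background (11798 genes). The test was two-sided, from limma 3.58.1 (lmFit and eBayes, R 4.3.3) with group as covariate, and p-values were adjusted by Benjamini-Hochberg over all tested genes. The fit was also run on simulated arrays with independent noise for each gene, which hold no shared array or scan effect. No result given here rests on that run. An exact permutation test of 3 against 3 arrays cannot go below p = 0.1, so none is given. Tables and figures used Python 3.11.15, pandas 2.3.3 and matplotlib 3.10.9.

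The 10 genes and the lists were chosen with earlier results of these data known. The text names all 10 genes, up to 3 genes per related list with the smallest unadjusted p, the defining marker of the fat, liver and proximal tubule lists, and the 2 genes most like each member over the 6 arrays. Adh6a was added after its values were seen, as were the markers Umod, Hbb and Nphs1. The 7 motifs and the promoters to print were also chosen after the data were seen. Alternatives were other scalings (quantile, spike-in, none, the deposited matrix), normexp with an offset of 50, and other probe filters and summaries. Further alternatives were a variance trend, array weights, the replicate block and leaving out each array. Replicate numbers in the titles were not said to mark shared litters or days. Deviations from the group means correlated across genes by -0.15, -0.10 and 0.23 for numbers 1, 2 and 3, so the numbers were not taken as pairs. The number of arrays limits the precision. Each p-value sets the group difference against the spread within groups as moderated by eBayes, where animal and array variation are not separated.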

Additional observations from a re-analysis of the deposited data

How the results depend on the processing

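Of 142 values of the 8 tested genes under alternatives, 136 kept their direction and 6 turned, and 0 passed the adjusted threshold. Adh4, Adh5, Adh6, Aldh2 and Aldh3a2 were higher with TCEP in every alternative run. With normexp on the median spot signals Adh1 was 0.013 and Aldh9a1 -0.079. Aldh9a1 was -0.0097 as the mean over its probes and -0.060 by its second probe alone. Leaving out 1 array at a time gave -0.38 to 0.18 for Adh1 (turned without TCEP replicate 1), -0.20 to 0.0076 for Aldh1a1 (turned without vehicle replicate 3) and 0.53 to 1.13 for Adh6. The cause of each turn was not tested. The count of the 8 with a higher mean was 5 to 7. The count at an unadjusted p under 0.05 was 1, with 3 under normexp, 2 under the replicate block (Adh4 and Adh6) and 0 without any single TCEP array. Genes at an unadjusted p under 0.05 numbered 983, with 694 to 1004 when 1 array was left out, 397 with spike-in centring and 1568 with normexp, and 0 passed the adjusted threshold in any setting. Of those at an unadjusted p under 0.05, 50.6% were higher with TCEP, against 69.6% where arrays were left unscaled and 62.7% where they were centred on the spike-ins. Over all tested genes the shares with a higher mean were 52.5%, 63.9% and 62.0% in the same settings. With the replicate block the count was 850, and it changed no adjusted call. Dim signals limit Adh4 and Adh6 most.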

Other observations

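The genes whose levels followed a dehydrogenase most closely over the 6 arrays were named by a fixed rule, 2 per gene. Pearson's r is given as a description over 6 arrays from 2 scans. Adh1 was followed by Tmed2, which encodes a cargo receptor of the secretory pathway, at r = 0.999, although Tmed2 moved over a far smaller range (4.95, 5.09 and 5.18 with TCEP, and 5.12, 5.12 and 5.04 with vehicle), and by Or8c10b at 0.997. Aldh2 was followed by Rnf167, a ubiquitin ligase gene, at 0.997 and by Ttyh3 at 0.996. Adh4 was followed by Epb41l4a at 0.994 and Zmynd11 at 0.992, and Adh6 by Meiob, a gene of meiotic recombination, at 0.993 and Ppp1r2l1 at 0.991. Adh5 was followed by Lta4h, the leukotriene hydrolase gene, at 0.988 and by the mitotic gene Ube2c at 0.987, and Aldh1a1 by Pla2g4b at 0.991 and Gpld1 at 0.986. Aldh3a2 was followed by the endocytic adaptor gene Picalm and by Pdcd10, both at 0.988, and Aldh9a1 by Or8c15b at 0.983 and Rfx7 at 0.981. Between 20 and 65 of the tested genes lay above 0.95 for each dehydrogenase.

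The liver marker Alb, which encodes albumin, was well above background on TCEP replicate 1 (0.85) and on no other array, where it lay between -7.80 and -6.34. It was chosen for mention after its values were seen. TCEP replicate 1 was also the array on which Adh1 was lowest, and the summed level of the 3 detected liver markers of 6 was 4.28 there, against 3.16 and 4.30 on the other TCEP arrays and 2.70 to 4.13 on the vehicle arrays. The part of liver RNA in the Adh1 levels was not tested.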
